A study of Homo sapiens with 6 samples.

Results

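The genes described here are 9 transcription factors of the ZIC and PAX families (ZIC1, ZIC2, ZIC4, ZIC5, PAX2, PAX3, PAX6, PAX7 and PAX8), chosen by symbol: the Ensembl identifiers of the count files were matched to GENCODE 44, and the rows carrying these symbols were taken. All 9 were found, out of 19977 genes listed. They were read in 6 RNA-seq libraries of NCRM-1, a human induced pluripotent stem cell line of wild type genotype, grown as suspended aggregates in vertical wheel bioreactors and collected after 4 days. In 3 libraries the E8 medium held 10 mg/ml PEG, a polymer, and 0.1 µg/ml heparin sodium salt, a sulfated sugar chain (PEG and HS). The other 3 came from E8 without either agent (E8 control), and in the bioreactors 50% of the medium was exchanged on day 2. The treatment protocol in the labels describes PEG with heparin for all 6 libraries, so groups were taken from the treatment entry of each library. Each medium carries a single bioreactor letter, so the effects of vessel and of medium cannot be told apart. In that case the spread between the 3 libraries of a medium may be technical.

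ZIC proteins are zinc finger transcription factors related to the GLI family. They act early in the embryo, in the neural plate, its border and the dorsal neural tube, and loss of ZIC2 in people is a known cause of holoprosencephaly. PAX proteins bind DNA through a paired domain and mark territories: PAX3 and PAX7 the dorsal neural tube, neural crest and muscle precursors, PAX6 the eye and forebrain, and PAX2 and PAX8 the kidney, the ear and the midbrain-hindbrain boundary. In human pluripotent cells PAX6 is widely used as an early sign of neural differentiation, whereas several ZIC genes are already transcribed in the pluripotent state.

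Each library held between 26991279 and 36185138 counts. The label of pluripotent cells was checked first. All 8 pluripotency markers examined averaged at least 1 CPM (counts relative to library size, scaled with edgeR's TMM factors), and their summed level was 8637 to 8827 CPM with PEG and HS, against 8262 to 8389 CPM in E8 control. Of these markers NANOG, POU5F1, DPPA4 and L1TD1 were higher in PEG and HS and SOX2 and LIN28A were lower. Markers of differentiated neurons summed to 280.6 to 294.1 CPM with PEG and HS, against 286.3 to 297.2 CPM in E8 control, with 1 of 6 lower (STMN2) and 0 higher. Most of this sum was TUBB3, at 237.5 CPM with PEG and HS against 241 CPM in E8 control, so it says little about the other neuron markers. At an unadjusted p under 0.05, ELAVL3 was lower as well (edgeR, adjusted p = 0.0516). Markers of mesoderm and endoderm summed to 4.52 to 4.74 CPM and 4.93 to 5.23 CPM, with 0 of 6 tested genes called by edgeR. At an unadjusted p under 0.05, 1 was higher (MIXL1, adjusted p = 0.122) and 1 lower (FOXA2, adjusted p = 0.0609), and DESeq2 and limma-voom also called 0 of them. The part of these shifts in the results below was not tested.

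ZIC1, ZIC2, ZIC4 and PAX6 were lower in PEG and HS than in E8 control, and no member was higher. The fall was 1.86-fold for ZIC1, 2.25-fold for PAX6, 3.21-fold for the sparsely counted ZIC4 and 1.09-fold for the abundant ZIC2. ZIC5, PAX2, PAX3, PAX7 and PAX8 did not pass the test. A gene was called when its p from the quasi-likelihood test of edgeR, adjusted by the Benjamini-Hochberg method over the 16505 genes with at least 10 counts in total, was under 0.05. All 9 members reached that count. The 4 lower members stand beside 13.1% of all tested genes called lower and the 0 higher members beside 12.2% called higher. No member with a positive fold change had an unadjusted p under 0.05, and DESeq2 and limma-voom also called 0 members higher. The median log2 fold change was -0.78 over the members, the value of the uncalled PAX3, and 0.003 over all genes tested. The members' median was -0.40 without PEG and HS replicate 1 and -0.32 without E8 control replicate 2. In bulk RNA, fewer cells expressing a gene and less RNA per cell cannot be told apart.

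**Figure D1:**
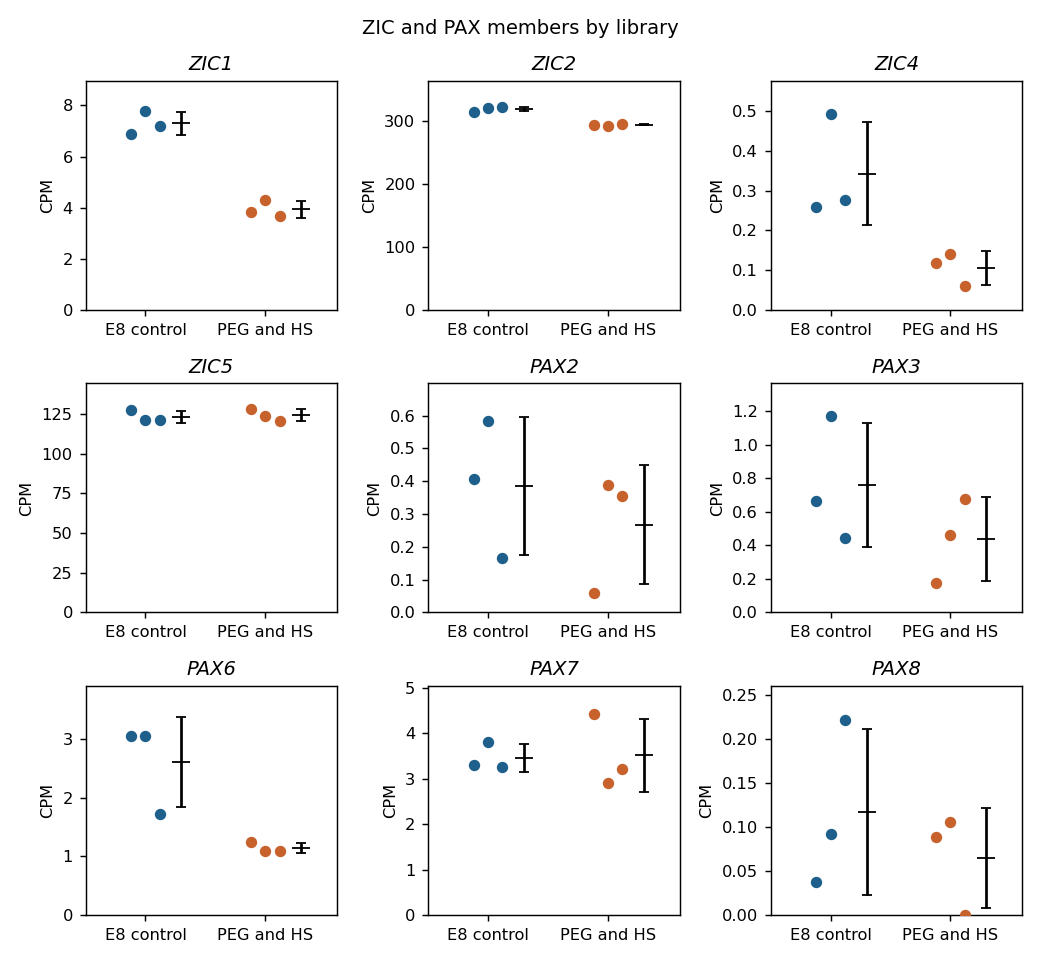
CPM of each member in the 3 E8 control libraries (blue) and the 3 PEG and HS libraries (orange), with the mean and SD of each medium in black and each axis starting at 0. The media separate for ZIC1, ZIC2, ZIC4 and PAX6 and overlap for the other 5 members. Of all genes tested, 19.8% had libraries that did not overlap and were lower, and 19.5% did not overlap and were higher.

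The 4 ZIC members sit as 2 divergent pairs. ZIC1 (chr3:147393422-147510293, plus strand) and ZIC4 (chr3:147386046-147406809, minus strand) have canonical start sites 2.82 kb apart in GRCh38. ZIC2 (chr13:99981784-99986765, plus strand) and ZIC5 (chr13:99962964-99971767, minus strand) have theirs 10.02 kb apart. The 250 bases before the start sites of ZIC1, ZIC2 and ZIC5 are shown because ZIC1 and ZIC2 were called and ZIC5, the partner of ZIC2, was not. They are RefSeq sequence of GRCh38.p14, printed 5′ to 3′ on the strand of the gene, at chr3:147409115-147409364 for ZIC1, chr13:99981534-99981783 for ZIC2 and chr13:99971768-99972017 for ZIC5. Capitals mark CCAAT boxes (CCAAT) and GC boxes (GGGCGG), searched on both strands, so that adjoining or overlapping matches run together.
ZIC1: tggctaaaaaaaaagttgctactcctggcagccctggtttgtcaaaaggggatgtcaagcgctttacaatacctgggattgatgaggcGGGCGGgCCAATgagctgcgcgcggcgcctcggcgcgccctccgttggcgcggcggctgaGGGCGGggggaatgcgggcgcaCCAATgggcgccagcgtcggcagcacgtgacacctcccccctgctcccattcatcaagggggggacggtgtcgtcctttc
ZIC2: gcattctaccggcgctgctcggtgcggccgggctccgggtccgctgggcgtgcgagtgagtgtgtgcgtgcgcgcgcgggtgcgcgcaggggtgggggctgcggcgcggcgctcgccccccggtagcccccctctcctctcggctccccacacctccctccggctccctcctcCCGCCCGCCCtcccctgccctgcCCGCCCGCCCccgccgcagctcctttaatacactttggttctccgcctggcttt
ZIC5: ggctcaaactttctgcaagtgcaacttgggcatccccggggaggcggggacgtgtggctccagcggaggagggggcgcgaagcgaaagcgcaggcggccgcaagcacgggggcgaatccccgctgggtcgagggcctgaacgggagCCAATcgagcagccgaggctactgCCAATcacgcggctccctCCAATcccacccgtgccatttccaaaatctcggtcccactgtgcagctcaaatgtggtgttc
The ZIC1 window held 2 CCAAT boxes and 2 GC boxes, the ZIC2 window 4 GC boxes and no CCAAT box, and the ZIC5 window 3 CCAAT boxes and no GC box. Among 35116 RefSeq promoter windows of this length, 32.0% held a CCAAT box and 42.6% a GC box. None of these 3 windows held TATAAA (10.7% of all windows) or CAGCAGG, letters of the core of ZIC binding motifs (8.5%). CpG dinucleotides numbered 23 in ZIC1, 31 in ZIC2 and 21 in ZIC5, against a median of 11 over all windows. The printed ZIC1 window lies within the annotated ZIC1 gene, which begins at chr3:147393422. It precedes the canonical start but not the start of every ZIC1 transcript. The corresponding ZIC4 window likewise lies in transcribed sequence of other ZIC4 transcripts, and it held 9 CpG dinucleotides and none of the 4 motifs.

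ZIC2 was the most abundant member by a wide margin. Its level was 293.7, 292.5 and 294.5 CPM in the PEG and HS libraries and 314.4, 320.5 and 321.5 CPM in the E8 control libraries. The PEG and HS libraries lay within 2 CPM of each other, all of them below every E8 control library. The mean fell from 318.8 ± 3.84 to 293.6 ± 1.0 CPM (SD, n = 3), a log2 fold change of -0.12 with an SE of 0.025 and a 95% interval of -0.17 to -0.07 (edgeR, adjusted p = 0.00238). Tested against a 1.2-fold change rather than against no change, the fall of ZIC2 was not called (adjusted p = 1).

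ZIC5, the divergent partner of ZIC2 and also a gene of the neural plate and neural crest, stayed within its replicate spread. Its level was 128.3, 123.6 and 120.8 CPM with PEG and HS, against 127.5, 121.4 and 120.9 CPM in E8 control. The libraries of both media interleaved. The log2 fold change was 0.013 with a 95% interval of -0.058 to 0.0835 (edgeR, adjusted p = 0.824). This interval reflects only the spread between these libraries, which may be technical. Counts on ZIC2 were 2.29, 2.37 and 2.44 times those on ZIC5 in the PEG and HS libraries and 2.47, 2.64 and 2.66 times in E8 control. The ratio was thus lower in each PEG and HS library, by 0.13 on the log2 scale (exact permutation test, two-sided, p = 0.1, the smallest that 3 against 3 libraries allow, and 0.1 after adjustment over the 5 ratios compared).

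ZIC1, which acts in the dorsal neural tube and cerebellum, was counted 129, 122 and 124 times in PEG and HS and 186, 253 and 260 times in E8 control. This corresponds to 3.83, 4.32 and 3.66 CPM and to 6.90, 7.79 and 7.21 CPM. The 3 PEG and HS libraries lay well below the 3 E8 control libraries. The mean fell from 7.30 ± 0.453 to 3.94 ± 0.340 CPM (SD, n = 3), a log2 fold change of -0.90 with an SE of 0.10 and a 95% interval of -1.11 to -0.68 (edgeR, adjusted p = 8.02e-06). A fall of this size or larger was seen in 4.08% of the genes tested.

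ZIC4, the partner of ZIC1 and with it a gene of cerebellar development, was counted only 43 times in all. The counts were 4, 4 and 2 in PEG and HS and 7, 16 and 10 in E8 control. The media did not overlap, although only 3 counts separate the nearest libraries, and E8 control replicate 2 holds the most. The log2 fold change was -1.68 with an SE of 0.55 and a wide 95% interval of -2.85 to -0.51 (edgeR, adjusted p = 0.0349). This call was lost without PEG and HS replicate 1 (adjusted p = 0.0787), without PEG and HS replicate 3 (adjusted p = 0.117) and without E8 control replicate 2 (adjusted p = 0.16), while the log2 fold change stayed between -1.91 and -1.33. DESeq2 gave ZIC4 no adjusted p, and edgeR's own filter on low counts left it out. Counts on ZIC1 were 32.3, 30.5 and 62 times those on ZIC4 in PEG and HS and 26.6, 15.8 and 26 times in E8 control, a difference of 0.83 on the log2 scale (exact permutation test, two-sided, p = 0.1, adjusted 0.1). The counts on ZIC4 are too few to fix the size of that difference. Antisense genes, ZIC1 among them, cover 5.21% of the ZIC4 exon bases. The strand setting of the counting is not given in the sources used here, so reads of the overlap with ZIC1 could fall on either gene. The part of such reads in the ZIC4 counts, and so in its call and in this ratio, was not tested.

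Among the PAX members, PAX6 was the only gene called. The gene (chr11:31784779-31817961, minus strand) was counted 42, 31 and 37 times in PEG and HS and 82, 99 and 62 times in E8 control, or 1.25, 1.10 and 1.09 CPM against 3.04, 3.05 and 1.72 CPM. E8 control replicate 3 lay well below the other E8 control libraries but above each PEG and HS library. The mean fell from 2.6 ± 0.765 to 1.15 ± 0.0868 CPM (SD, n = 3), a log2 fold change of -1.17 with an SE of 0.23 and a 95% interval of -1.66 to -0.67 (edgeR, adjusted p = 0.0016). Over the alternatives the log2 fold change of PAX6 ran from -1.41 to -1.03, with an adjusted p of at most 0.0108.

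Exons of PAX6 share 26.3% of their bases with genes on the opposite strand, chiefly 5241 bases with ELP4, a subunit of the Elongator complex. Whether the counting used strand is not given in the sources used here, so reads of the overlap could fall on either gene. ELP4 stood at 19.4 CPM with PEG and HS, against 20.6 CPM in E8 control and was not called (log2 fold change -0.09, edgeR adjusted p = 0.258). Its PEG and HS libraries nevertheless all lay below those of E8 control. Relative to ELP4, counts on PAX6 were lower in each PEG and HS library than in each E8 control library, by 1.05 on the log2 scale (exact permutation test, two-sided, p = 0.1, adjusted 0.1). This ratio of whole genes cannot show to which gene reads of the overlap were given. The part of such reads in the PAX6 counts, and so in its call and in this ratio, was not tested.

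PAX7 (chr1:18630846-18748866, plus strand), known from muscle satellite cells and neural crest, did not pass the test. Its level was 4.42, 2.90 and 3.22 CPM with PEG and HS, against 3.30, 3.82 and 3.27 CPM in E8 control. PEG and HS replicate 1 was the highest of all libraries and PEG and HS replicate 2 the lowest. The log2 fold change was 0.0275 with a 95% interval of -0.31 to 0.36 (edgeR, adjusted p = 0.924). PAX6 counts were 0.282, 0.378 and 0.339 times PAX7 counts in PEG and HS and 0.921, 0.798 and 0.525 times in E8 control. The difference was -1.14 on the log2 scale, with no overlap between media (exact permutation test, two-sided, p = 0.1, adjusted 0.1).

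PAX3 (chr2:222199887-222298998, minus strand), the close relative of PAX7, was counted 6, 13 and 23 times in PEG and HS and 18, 38 and 16 times in E8 control. The media overlapped, and E8 control replicate 2 was the highest library. The log2 fold change was -0.78 with a 95% interval of -1.76 to 0.19 (edgeR, adjusted p = 0.241). Within each medium the PAX3 counts scattered more widely than counting error gives, with a chi-square per degree of freedom of 4.87 in PEG and HS and 6.17 in E8 control. Such scatter was not particular to PAX3. In the same order of media, the value was 4.09 and 4.02 for PAX2 and 3.91 and 3.22 for ZIC5. For the called PAX6 it was 0.216 and 7.76, and for PAX7 5.77 and 0.885.

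PAX2 (chr10:100735396-100829944, plus strand), a regulator of kidney and optic development, was counted 2, 11 and 12 times in PEG and HS and 11, 19 and 6 times in E8 control. As with PAX3, PEG and HS replicate 1 held the lowest count and E8 control replicate 2 the highest. The log2 fold change was -0.53 with a 95% interval of -1.79 to 0.73 (edgeR, adjusted p = 0.569). PAX8 (chr2:113215997-113278921, minus strand), a thyroid and kidney regulator, was counted 3, 3 and 0 times in PEG and HS and 1, 3 and 8 times in E8 control, 18 in all. Its log2 fold change of -0.93 had a 95% interval of -2.83 to 0.97 (edgeR, adjusted p = 0.499). Antisense genes cover 22.4% of the PAX8 exon bases.

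**Figure D2:**
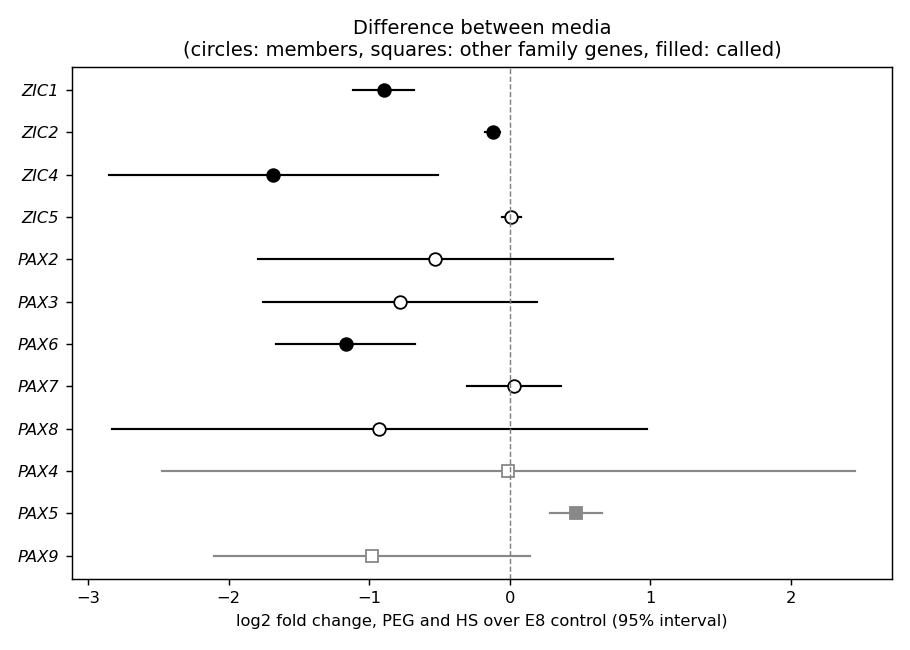
Log2 fold change of PEG and HS over E8 control with its 95% interval from edgeR, for the 9 members (circles) and the 3 other tested PAX genes (squares), filled where called. Intervals are narrow for ZIC2 and ZIC5, and those of PAX2, PAX3, PAX7 and PAX8 cross 0.

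Of the other PAX genes, PAX5, the B cell factor, moved the opposite way. It stood at 7.22 ± 0.64 CPM without the agents and rose to 10.0 ± 0.628 CPM with them (SD, n = 3), a log2 fold change of 0.47 with a 95% interval of 0.29 to 0.65 (edgeR, adjusted p = 0.000758). Tested against a 1.2-fold change, PAX5 was not called (adjusted p = 0.061). PAX9 and PAX4, with 39 and 12 counts in all, were not called. PAX1, with 3 counts, was not tested.

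Levels of different genes were compared as CPM per kb of canonical transcript. Counts cover the whole gene, so an order between genes depends on the length chosen. The canonical transcript of PAX6 holds 2743 bases and all its exons together 20639, while for PAX7 these are 6213 and 6473. Orders by the length of all exons were not computed, so the place of PAX6 is given for the canonical length only. In E8 control ZIC2 stood at 107.6 CPM per kb, above 96.6% of tested genes, followed by ZIC5 at 27.4. ZIC1 at 1.39, PAX6 at 0.949, PAX5 at 0.829 and PAX7 at 0.557 came next, and PAX3 stood at 0.226. PAX2 at 0.0922, ZIC4 at 0.0855 and PAX8 at 0.0289 CPM per kb closed the order of the members. In E8 control the libraries of PAX6 and PAX5 overlapped, as did those of PAX3 and PAX2 and of PAX2 and ZIC4, so these neighbours cannot be ordered. The lowest PAX6 library of E8 control, at 0.626, lay just above the highest PAX7 library, at 0.614 CPM per kb. By canonical length the order changed in PEG and HS below the most abundant members. ZIC2 at 99.1 and ZIC5 at 27.6 CPM per kb still led the members, PAX5 at 1.15 lay above both ZIC1 at 0.748 and PAX6 at 0.418, and PAX7 at 0.566 lay above PAX6, each without overlap of libraries. ZIC1 and PAX7 overlapped there.

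**Figure D3:**
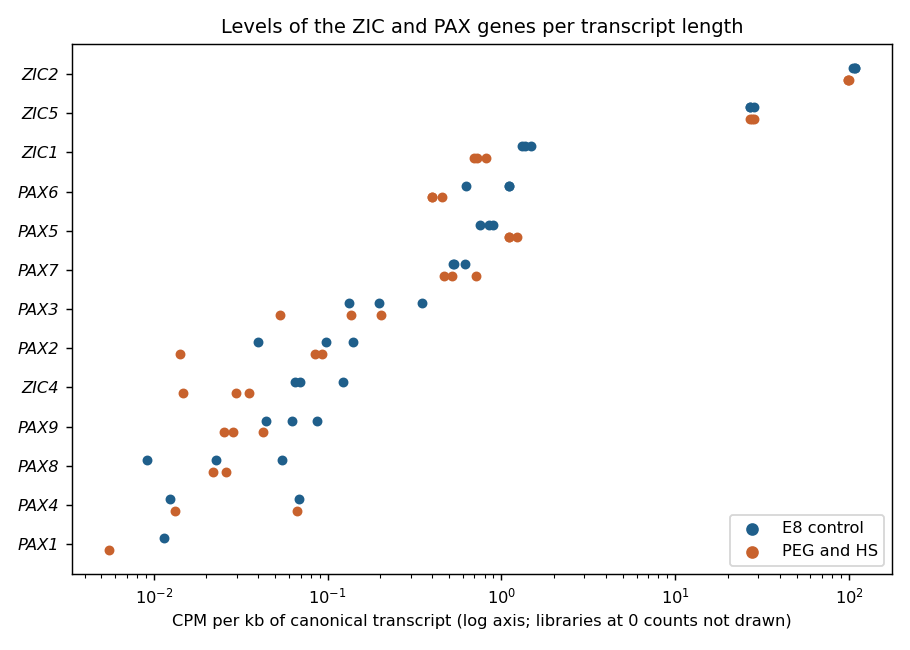
Level of each member and of the other PAX genes in each library as CPM per kb of canonical transcript on a log axis, E8 control in blue and PEG and HS in orange, ordered by the E8 control mean. The ZIC2 libraries lie near 100, whereas ZIC4, PAX2 and PAX8 lie under 0.15.

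The nearest protein-coding neighbours of the members were also read. PCCA, a mitochondrial carboxylase subunit whose start lies 107.2 kb from that of ZIC2, was lower in PEG and HS, at 38.1 against 45.7 CPM (log2 fold change -0.26, edgeR adjusted p = 0.000103). EPHA4, an ephrin receptor 724.8 kb from PAX3, fell further, from 26.1 to 9.31 CPM (log2 fold change -1.49, edgeR adjusted p = 3.02e-10). CLYBL beside ZIC5, NDUFB8 and SLF2 beside PAX2, RCN1 beside PAX6, KLHDC7A beside PAX7, and PSD4 and ZNG1B beside PAX8 were not called. AGTR1 beside ZIC4 and ENSG00000288658 beside PAX3, with 12 and 33 counts in all, were also not called. PLSCR5 beside ZIC1, ENSG00000285283 beside PAX6 and TAS1R2 beside PAX7 had 0 counts.

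For the members of at least 1 CPM, the genes of most similar course over the 6 libraries were found among 13557 genes by the root mean square difference of centred log2 CPM. For ZIC1 these were CACNA2D2, a calcium channel subunit (0.050), and FRAT1, a Wnt pathway protein (0.054). ZIC2 was closest to ZNF618 (0.010) and LINGO1 (0.012), ZIC5 to FAM219B (0.010) and PPHLN1 (0.012), and PAX7 to SEPTIN4 (0.066) and SPRYD7 (0.083). PAX6 was closest to SMOC1, a secreted matrix protein (0.081), and DLK1, a Notch-like ligand (0.157). Both share with PAX6 the low value in E8 control replicate 3: SMOC1 stood at 4.30, 4.56 and 2.38 CPM in the E8 control libraries, and DLK1 at 12.9, 15.0 and 9.12 CPM. In PEG and HS, SMOC1 lay between 1.77 and 1.96 CPM and DLK1 between 6.35 and 6.80 CPM, below all E8 control libraries.

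Genes that act beside the ZIC and PAX factors were read from lists, drawn up with earlier results of these data known. The percentages of all genes called, 13.1% lower and 12.2% higher, apply here too. Because of how the lists were chosen, the counts below are a description and not a test of the lists. In the neural plate list 7 of 8 tested genes fell and 0 rose, with a median log2 fold change of -1.60. DESeq2 called 6 of them lower and gave HES5 no adjusted p. SOX21, a neural progenitor factor, fell from 43.9 to 7.77 CPM (log2 fold change -2.51, edgeR adjusted p = 4.92e-13). In the list of neural plate border and neural crest, 4 of 14 fell and 3 rose, with a median of -0.80. DESeq2 called 2 lower (MSX2 and TFAP2A) and 3 higher, with an adjusted p of 0.0627 for SOX10 and none given for DLX5. TFAP2A, a border and crest factor, fell from 6.00 to 0.604 CPM (log2 fold change -3.30, edgeR adjusted p = 9.84e-09), while GBX2, a posterior neural and border factor, rose from 9.58 to 17.3 CPM (log2 fold change 0.85, edgeR adjusted p = 2.01e-07).

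Among the zinc finger relatives of ZIC, 4 of 6 GLI and GLIS genes fell and 0 rose by edgeR, and 3 fell by DESeq2 and by limma-voom, where GLIS3 was not called. GLI3, a mediator of hedgehog signalling, went from 48.2 to 39.2 CPM (log2 fold change -0.30, edgeR adjusted p = 0.000102). EYA and DACH genes and the family of SIX6, which work with PAX factors in eye, ear and kidney, were mixed, with 4 of 12 lower and 3 higher by edgeR, 2 lower and 3 higher by DESeq2, and 3 lower and 3 higher by limma-voom. DACH1 had a log2 fold change of -1.39 (edgeR, adjusted p = 0.000772) and SIX6 of 0.85 (edgeR, adjusted p = 3.45e-07). In the eye field and forebrain list 2 of 7 tested genes fell, among them OTX2, a head organizer and forebrain factor, with a log2 fold change of -2.10 (edgeR, adjusted p = 2.08e-13).

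The remaining lists cover other territories of PAX action. The kidney list had 2 of 7 tested genes lower, with RET, a receptor of kidney and enteric development, at a log2 fold change of -0.75 (edgeR, adjusted p = 2.83e-07). The paraxial mesoderm and muscle list had 2 of 5 lower, TBX6 and the sparsely counted MEOX1. TBX6 had a log2 fold change of -0.48 (edgeR, adjusted p = 0.0114) and lost its call without E8 control replicate 3 (adjusted p = 0.062). MYOD1, the muscle determination factor, had 0 counts. In the midbrain-hindbrain list 1 of 6 fell, WNT1, on 18 counts. DESeq2 gave MEOX1 and WNT1 no adjusted p. In the kidney, muscle, midbrain-hindbrain, eye field, neural plate, GLI and neuron lists, 0 genes were higher by edgeR, DESeq2 or limma-voom, also at an unadjusted p under 0.05.

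**Figure D4:**
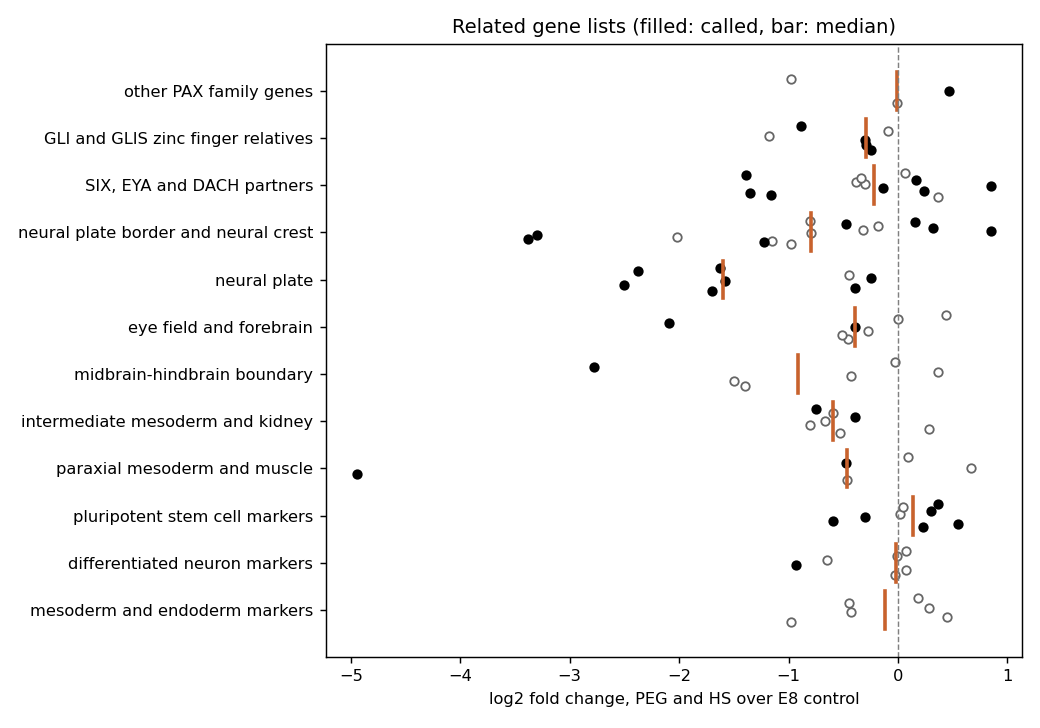
Log2 fold change of PEG and HS over E8 control for each tested gene of 12 lists, filled where called, with the list median as an orange bar. The lists were drawn up with earlier results of these data known. The neural plate list has its median at -1.60, whereas those of the pluripotency and neuron markers are 0.14 and -0.01.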

How the data were processed

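Bulk RNA of 6 libraries was examined. From polyadenylated RNA the authors made stranded libraries. They trimmed reads with Trim Galore 0.6.7, mapped them to GRCh38 with STAR 2.6.1 in nf-core/rnaseq 3.6, and deposited raw counts per gene, 1 file for each library. The counting tool, its strand setting and the annotation release are not given in the sources used here. Of 19977 identifiers, 19916 matched GENCODE 44. Genes with at least 10 counts in total were kept, scaled with TMM and tested with edgeR 4.0.16 in R 4.3.3 (quasi-likelihood test with trended dispersion, two-sided, no covariate). CPM values are computed from the deposited counts.

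The members and gene lists were chosen with earlier results of these data known. Genes named are the members, the other PAX genes, the nearest neighbours, the 2 genes of most similar course for each member of at least 1 CPM, and from each list the called gene that changed most in each direction, if of at least 1 CPM. One gene that this rule takes is not reported here. Other list genes, ELP4 and the 5 ratios were chosen after values were seen. Alternatives were DESeq2 1.42.0, limma-voom (limma 3.58.1), other normalizations, filters and thresholds, a replicate block and each library left out. On simulated counts for PEG and HS against E8 control, edgeR recovered 95% of the 200 changed genes among 16412 and 5.47% of its calls were false. Trended dispersion was chosen by the share of false calls there, and no value for gene-wise dispersions is given here. The simulated counts were themselves drawn at the trended dispersion. The simulation therefore cannot show how this choice, or the share of false calls, holds for genes that depart from the trend. Sequences are from RefSeq.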

Additional observations from a re-analysis of the deposited data

How the results depend on the processing

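Of 4173 genes called, 2601 remained in number at an adjusted p under 0.01 and 868 when tested against a 1.2-fold change. Under the latter 1 ZIC member was called lower (ZIC1) in place of 3. Leaving out each library in turn gave 3114 to 3674 calls, DESeq2 3398 and limma-voom 4172. With the replicate number as a block (replicate block), 4444 genes were called, and 3 ZIC members and 1 PAX member were lower. Same-numbered libraries deviated together with r = -0.015, 0.028 and 0.06 over 13557 genes. These values gave no sign that the numbers pair the libraries. They cannot exclude it, since differently numbered libraries were not compared. The count of lower ZIC members was 2 with DESeq2, with edgeR's filter on low counts, at an adjusted p under 0.01 and without PEG and HS replicate 1, PEG and HS replicate 3 or E8 control replicate 2. One PAX member was lower and 0 members were higher in each setting run. Of 139 alternative values of the members' log2 fold changes, 128 kept their direction and side of the threshold, 6 lost the call and 5 changed sign. Settings that filtered a gene out or gave it no adjusted p are not among these values. For ZIC4 these were DESeq2 and edgeR's filter on low counts. Uncalled genes that stayed uncalled count among the 128. The sign changes were in uncalled genes. Leaving out each library moved ZIC5 from -0.0118 to 0.0333, PAX7 from -0.1746 to 0.1407, PAX4 from -0.4825 to 0.4812, ZNG1B from -0.0242 to 0.1053, FAM219B from -0.0049 to 0.0373, PPHLN1 from -0.0075 to 0.0407, SEPTIN4 from -0.1636 to 0.1251 and SPRYD7 from -0.0611 to 0.1472. Without changing sign, PAX2 moved from -0.9173 to -0.0388, PAX3 from -1.2752 to -0.3191 and PAX8 from -1.4001 to -0.0825. PAX4 was at 0.0004 with library size alone and SEPTIN4 at -0.0043 with the replicate block. ZNF618 lost its call without PEG and HS replicate 2 (adjusted p = 0.0523) and without E8 control replicate 3 (adjusted p = 0.0624, edgeR). No ratio changed sign when a library was left out, an alternative chosen after seeing the data. KLHDC7A, not called in the report, was called in 6 of its 16 alternatives, with an adjusted p down to 0.0217. Low counts limit PAX2, PAX3, PAX8 and ZIC4, and PAX2 and PAX3 also scattered beyond counting error within each medium.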
